A study of Mus musculus with 6 samples.

Results

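Rab GTPases are the largest branch of the Ras superfamily of small GTP-binding proteins. Here they were taken as the genes whose symbol is Rab followed by a number, with or without a letter and a second number, and whose normalized count averaged at least 10 over the 6 libraries. Of 52550 genes in the files, 59 carried such a symbol and 45 of these reached the mean of 10. Polyadenylated RNA had been read from splenic plasmacytoid dendritic cells (C57BL/6 mice), a cell type that senses nucleic acids in endosomes and secretes type I interferon. All cells had been stimulated for 12 hours with R837 (imiquimod), a small-molecule agonist of the endosomal receptor TLR7. In the R837 group (n = 3 libraries) it was given alone, and in the taurine group (n = 3 libraries) taurine, a sulfur-containing amino acid, was added to it. No unstimulated library was analysed here, so no value gives the level at rest. The labels do not say whether the replicates came from separate mice or cultures, so the p-values measure the spread between these libraries, which may be technical. The sources used here do not give the purification of the cells or the age of the mice.

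A Rab protein cycles between a GTP-bound form on a membrane and a GDP-bound form that carrier proteins hold in the cytosol. Exchange factors load GTP, GTPase-activating proteins end the active state, and effectors that bind only the active form tether, move or fuse the vesicle. Each Rab sits on its own set of membranes. In plasmacytoid dendritic cells this traffic carries TLR7 and its ligands to endosomes, secreted interferon and chemokines to the surface, and antigen to lysosomes.

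Only 2 of the 45 Rab transcripts passed the test between the groups. Rab29, a Rab of the trans-Golgi network and lysosomes, rose when taurine was present, and Rab6a, a Rab of traffic at the Golgi, fell. The test was limma with an abundance trend on log2(normalized count + 1), with Benjamini-Hochberg adjustment over all 15265 genes tested, and a call needed an adjusted p under 0.05. The 2 calls are 4.44% of the members, against 6.41% of all genes tested (3.75% higher and 2.66% lower), a share near the background. Of all calls 58.5% were higher, and 44.1% were when the 50 most abundant genes were left out of the scaling. Changes are log2 differences, R837 plus taurine minus R837, with their standard error, and levels are mean normalized counts ± SD (n = 3). The median change of the 45 members was 0.15, against -0.011 for all genes tested. A change above 0 was found for 33 members and below 0 for 12, against 7419 and 7846 of all genes tested. Under the alternative fits given below, the members above 0 ran from 29 (without R837 replicate 1) to 34 (without taurine replicate 2). The 45 changes share the same 6 libraries. The groups did not overlap for 14 members, 10 higher and 4 lower with taurine, which is 31.1% of them, against 29.6% of all genes (14.6% higher and 15% lower). These are transcript levels of bulk cells, in which fewer cells of a type and less RNA per cell cannot be told apart.

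**Figure D1:**
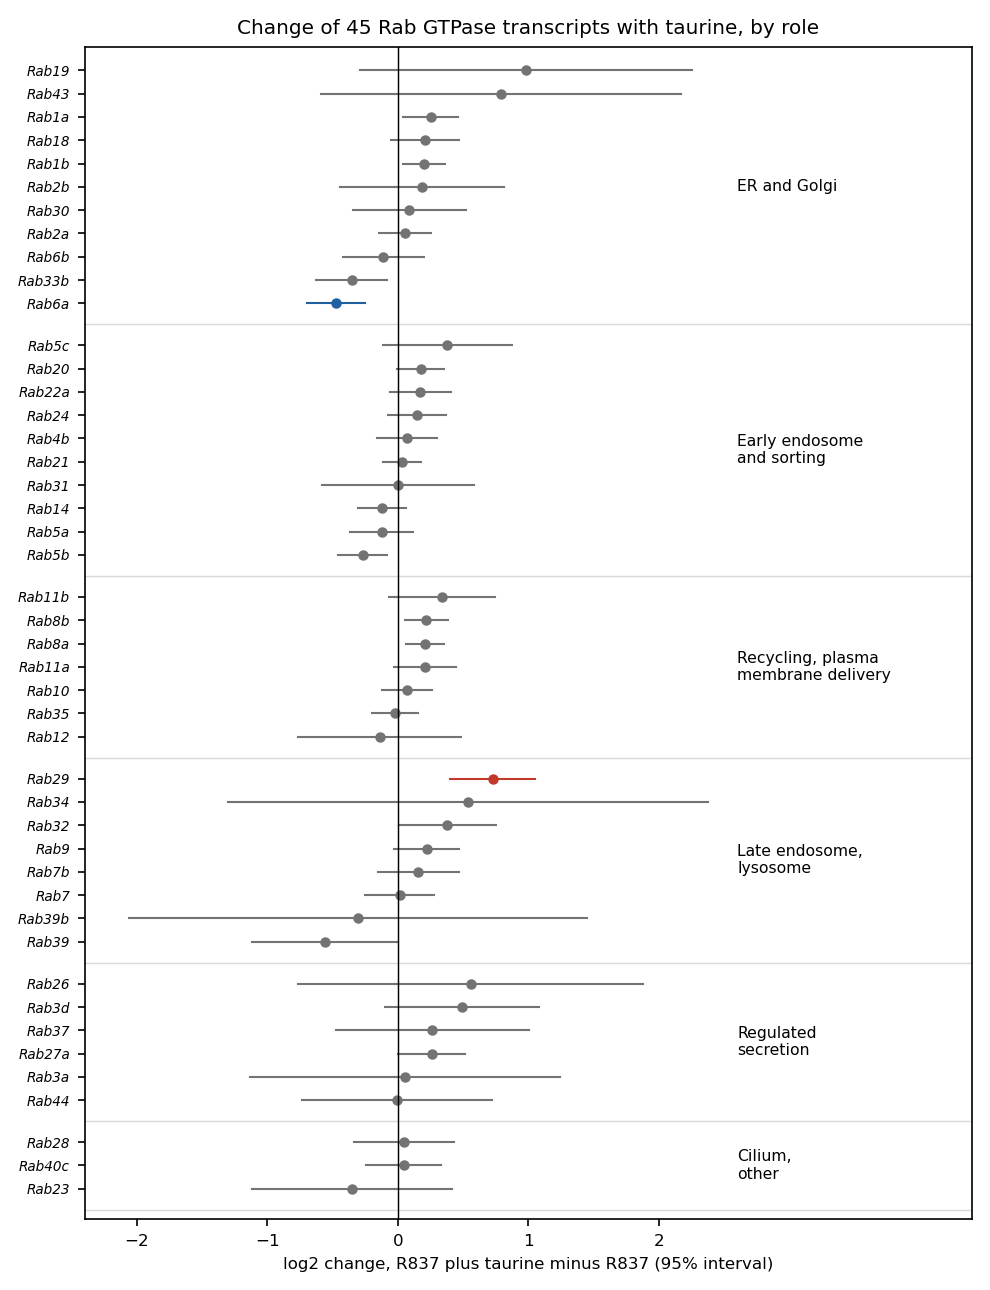
Log2 change (x axis, R837 plus taurine minus R837) with its 95% interval for the 45 Rab genes, grouped by the role of the protein. Rab29 (red, 0.73) and Rab6a (blue, -0.48) passed the threshold, and the grey points did not.

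Rab29 was first named Rab7l1 for its likeness to Rab7 and is known for recruiting the kinase LRRK2 to membranes. Its gene (ENSMUSG00000026433.13, chromosome 1, 131867224 to 131872887, plus strand, mm10) had normalized counts of 1276, 1182 and 1319 in replicates 1 to 3 with R837, and 1739.5, 1999.9 and 2596 in replicates 1 to 3 with taurine added. Every library with taurine lay above every library without it, and taurine replicate 3 was the highest. The mean went from 1259 ± 70 to 2112 ± 439 (log2 change 0.73 ± 0.14, adjusted p = 0.0244, limma, 95% interval 0.40 to 1.05). No other annotated gene overlaps its exons. The call was lost without R837 replicate 1 or 2 or taurine replicate 2 or 3 (adjusted p = 0.074, 0.102, 0.0629 and 0.0585), while the change stayed between 0.57 and 0.86 with any 1 library left out. It was also lost when genes with low values were kept (adjusted p = 0.0515) and without the abundance trend (0.124).

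Rab6a returns membrane from the Golgi to the endoplasmic reticulum and accompanies secretory vesicles that leave the Golgi. Its gene (ENSMUSG00000030704.14, chromosome 7, 100607410 to 100641268, plus strand, mm10) had normalized counts of 3469, 3012 and 2757 in replicates 1 to 3 with R837, and 2255, 2165 and 2195 in replicates 1 to 3 with taurine added. The taurine libraries lay close together and below all R837 libraries, of which replicate 1 was the highest. The mean went from 3079 ± 361 to 2205 ± 46.2 (log2 change -0.48 ± 0.098, adjusted p = 0.0282, limma, 95% interval -0.70 to -0.25). Its exons share 708 bases with Mrpl48, a mitochondrial ribosomal protein gene on the other strand, which went from 1696 ± 272 to 1286 ± 87.5 (log2 change -0.39, adjusted p = 0.106). With the reads of both genes summed the change was -0.44 (adjusted p = 0.0313). The part of that overlap in the result was not tested further, since the strand setting of the read counting is not given. The call held without R837 replicate 3 and was lost with any of the other 5 libraries left out (adjusted p = 0.0744 without taurine replicate 1 to 0.0996 without R837 replicate 2). It was lost as well without a filter on low values (0.0507) and without the abundance trend (0.127).

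Rab6b, the paralog of Rab6a that is best known from neurons, showed 680.3, 606 and 590.3 with R837 and 573, 505 and 663 with taurine added. These groups overlapped (log2 change -0.11 ± 0.14, adjusted p = 0.668). Per kb of exon the ratio of Rab6a to Rab6b was 6.88, 6.7 and 6.3 with R837 and 5.31, 5.78 and 4.47 with taurine. The ratio was lower in every taurine library, and p was 0.1 by an exact two-sided permutation test, the smallest that 3 against 3 allows (0.55 after Benjamini-Hochberg adjustment over the 11 pairs of Rab genes that share a number).

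**Figure D2:**
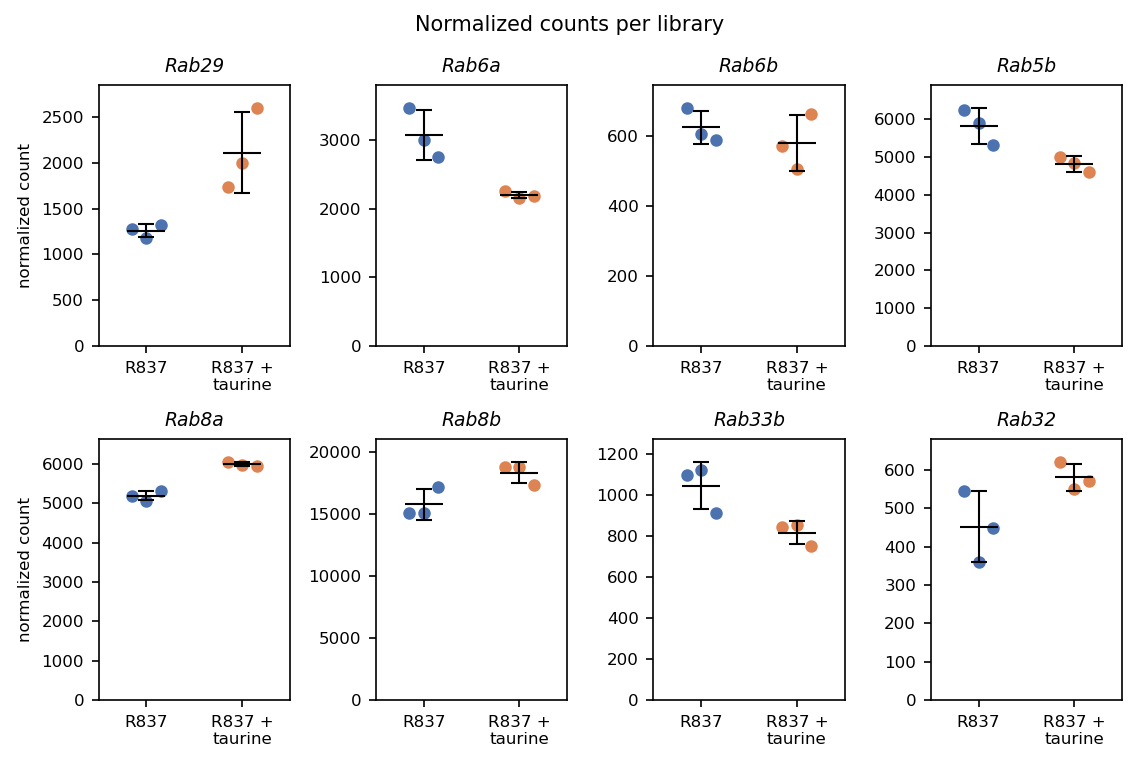
Normalized counts (y axis, from 0) of 8 Rab genes in the 3 R837 libraries (blue) and the 3 libraries with taurine (orange), with the mean and SD in black. Rab29 rises from 1259 to 2112 and Rab6a falls from 3079 to 2205, and only Rab6b has overlapping groups.

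The start-site regions of Rab29, Rab6a and Rab6b are printed because the first 2 hold the called changes and the third is the paralog that did not pass. They run from 250 bases before to 50 after the annotated start (RefSeq, GRCm38.p6), 5′ to 3′ on the gene's strand, with matches to the searched motifs in capitals. By the gene coordinates that go with the counts, Rab6b starts at 103111787, so its whole window lies after that start. Rab6a starts at 100607410 by the same coordinates, so most of its window does too.
Rab29 (chr1:131867027-131867326, plus strand): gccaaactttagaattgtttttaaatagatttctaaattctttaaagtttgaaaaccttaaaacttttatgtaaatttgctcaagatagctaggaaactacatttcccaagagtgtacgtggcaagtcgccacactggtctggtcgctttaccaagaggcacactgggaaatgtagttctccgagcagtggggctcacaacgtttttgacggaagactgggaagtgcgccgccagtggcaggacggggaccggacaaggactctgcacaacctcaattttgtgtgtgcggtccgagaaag
Rab6a (chr7:100607336-100607635, plus strand): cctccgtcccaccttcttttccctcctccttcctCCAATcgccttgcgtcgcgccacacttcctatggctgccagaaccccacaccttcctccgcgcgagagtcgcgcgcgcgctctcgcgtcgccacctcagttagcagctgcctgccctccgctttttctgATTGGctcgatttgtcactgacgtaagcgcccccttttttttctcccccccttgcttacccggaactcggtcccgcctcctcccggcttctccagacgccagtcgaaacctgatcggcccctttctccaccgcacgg
Rab6b (chr9:103111824-103112123, plus strand): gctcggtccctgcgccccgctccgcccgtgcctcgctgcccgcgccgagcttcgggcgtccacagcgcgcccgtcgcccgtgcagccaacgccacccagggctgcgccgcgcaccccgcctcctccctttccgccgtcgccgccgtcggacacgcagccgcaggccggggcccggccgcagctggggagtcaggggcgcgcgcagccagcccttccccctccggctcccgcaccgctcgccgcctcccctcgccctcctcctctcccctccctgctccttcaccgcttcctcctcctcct
5 motifs were searched on both strands: the core of the interferon-stimulated response element (searched by its consensus), the gamma-activated site (TTCNNNGAA), the E-box of many lysosomal genes (CACGTG), the cyclic AMP response element (TGACGTCA) and the CCAAT box (CCAAT). In these 3 windows the sole matches were the 2 CCAAT boxes of Rab6a. The RefSeq table held 46 windows for 38 of the 45 members. The interferon response core was in 1 of them (Rab19), or 2.17%, against 3.44% of all 32851 windows of that length. The gamma-activated site was in 6.52% against 8.30%, the E-box in 13.0% against 7.15%, the cyclic AMP element in 2.17% against 1.79% and the CCAAT box in 45.7% against 37.4%. These are counts of letters in a window and say nothing about which factors bind there.

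Levels per length spanned about 3 orders of magnitude. In normalized counts per kb of exon, ordered by the mean over the 6 libraries, Rab20 was highest (4004 ± 325 with R837 and 4516 ± 141 with taurine), followed by Rab5c (3200.1 ± 928 with R837 and 4071 ± 702 with taurine), Rab8b (3332 ± 256 with R837 and 3873 ± 178 with taurine), Rab10 (3114 ± 226 with R837 and 3270.4 ± 260.03 with taurine) and Rab7 (2941 ± 323 with R837 and 2978 ± 432 with taurine). These 5 belong to phagosomes, early endosomes, delivery to the plasma membrane and late endosomes. Rab20 and Rab5c, and Rab10 and Rab7, lay within 1 SD of each other in both groups. With R837 alone Rab8b lay above Rab5c, whose replicate 2 was low. Rab8b and Rab10 were within 1 SD with R837 but not with taurine. At the other end of the mean over 6 libraries stood Rab39b (3.72 ± 0.898 with R837 and 3.73 ± 3.32 with taurine) and Rab23 (7.15 ± 0.413 with R837 and 5.83 ± 2.22 with taurine). With R837 alone Rab26, Rab34 and Rab37 also lay below Rab23. Of the 14 matching genes below the floor, 4 were at 0 in every library (Rab17, Rab3c, Rab42 and Rab9b), and Rab27b, the close relative of Rab27a, averaged 2.69 over the 6 libraries. Just inside the floor was Rab39b with a mean of 12.7, and just outside was Rab13 with 9.04.

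**Figure D3:**
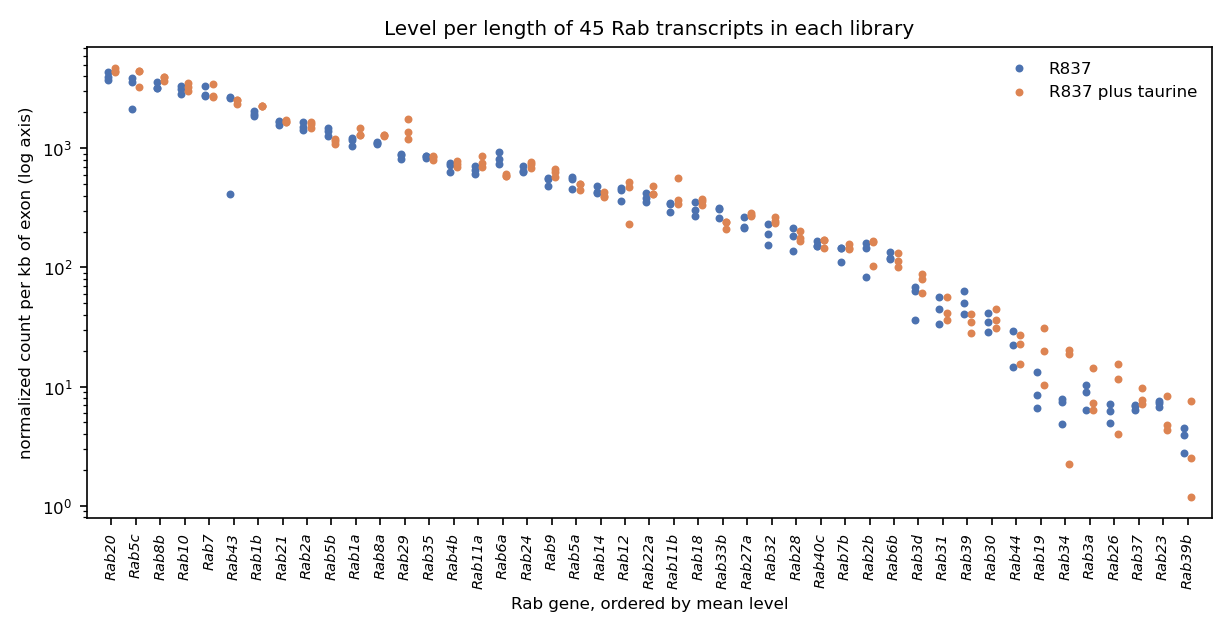
Level of each of the 45 Rab genes in normalized counts per kb of exon (y axis, log scale), with 1 point per library for R837 (blue) and R837 plus taurine (orange). Rab20 leads and Rab39b is last, and Rab43 has 1 blue point far below its others.

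Among the 11 Rabs of the endoplasmic reticulum and Golgi, Rab6a was the only call. Rab33b, which sits on the Golgi and binds the autophagy protein Atg16l1, had 1098, 1121 and 912 with R837 and 843, 851 and 749 with taurine added. Its groups did not overlap, but it did not pass (log2 change -0.35 ± 0.12, adjusted p = 0.114), and it passed only without R837 replicate 3 (adjusted p = 0.0474). Both genes of Rab1, which carries vesicles from the endoplasmic reticulum to the Golgi, lay higher in every taurine library without passing. Rab1a had 4649, 4411 and 3960.4 with R837 and 5664, 4891 and 4942 with taurine added (log2 change 0.25 ± 0.092, adjusted p = 0.138). Rab1b had 4402, 4266 and 4682 with R837 and 5146, 5095 and 5096 with taurine added (log2 change 0.20 ± 0.070, adjusted p = 0.123), and a change of 0.090 with the length and GC trends removed. The ratio of Rab1a to Rab1b per kb overlapped between the groups. Rab18, found on the endoplasmic reticulum and lipid droplets, had a change of 0.21 (-0.055 to 0.47, 95% interval). Rab2a and Rab2b, which act between the endoplasmic reticulum and the Golgi, had 0.053 (-0.15 to 0.25) and 0.18 (-0.44 to 0.81). For Rab2b replicate 2 was the lowest of each group (344 with R837 and 431 with taurine). Without R837 replicate 2 the change of Rab2b was -0.11. The Golgi Rabs Rab30 and Rab19 had 0.088 (-0.35 to 0.52) and 0.98 (-0.29 to 2.25). The wide interval of Rab19 goes with a mean of 23.5.

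Rab43, a Golgi Rab, depended on 1 library. Its normalized counts were 14795, 14593 and 2281 in replicates 1 to 3 with R837, and 13918, 12981 and 14099 in replicates 1 to 3 with taurine added. R837 replicate 3 lay far below the other 5 libraries, which ran from 12981 to 14795. The change of 0.79 (adjusted p = 0.475) became -0.11 without that library (adjusted p = 0.328). The neighbouring gene Gm45140 shares 4164 exon bases with Rab43 on the same strand and had 73.6, 115 and 126 with R837 and 269.6, 117 and 795 with taurine added. The summed level of the 45 members was 129956, 126272 and 118312 with R837 and 139881, 133362 and 137000 with taurine. Without Rab43 it was 115161, 111679 and 116031 against 125963, 120381 and 122901, and the groups stayed apart. The sum over all 15265 genes tested was apart in the same direction. It was 3.57e+07, 3.54e+07 and 3.49e+07 with R837 and 3.65e+07, 3.65e+07 and 3.65e+07 with taurine.

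**Figure D4:**
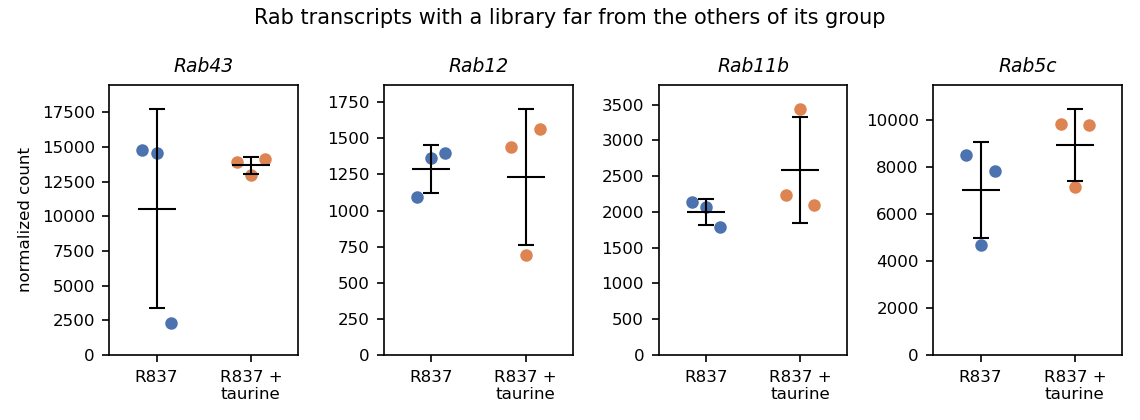
Normalized counts (y axis, from 0) of Rab43, Rab12, Rab11b and Rab5c in the 3 libraries of each group, with mean and SD in black. Rab43 has 1 low library (2281 in R837 replicate 3), and Rab5c is low in replicate 2 of both groups (4700.4 and 7152).

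None of the 10 Rabs of early endosomes passed. The 3 Rab5 proteins drive fusion of endocytic vesicles with early endosomes, and their transcripts had changes of different sign. Rab5b had 6246, 5894 and 5318 with R837 and 5009.6, 4851 and 4593 with taurine added, with every taurine library lower (log2 change -0.27 ± 0.082, adjusted p = 0.0865). It passed with DESeq2 (adjusted p = 0.0348) and without R837 replicate 3 (0.0336). Rab5a had 3001, 2896 and 2413 with R837 and 2649, 2635 and 2329 with taurine added, with overlapping groups (log2 change -0.12 ± 0.11, adjusted p = 0.532). Rab5c had 8509, 4700.4 and 7853 with R837 and 9831, 7152 and 9812 with taurine added (log2 change 0.38 ± 0.22, adjusted p = 0.332). Replicate 2 was the lowest of each group, and without R837 replicate 2 the change was 0.11. Per kb of exon Rab5c held the most of the 3 in every library. The ratio of Rab5a to Rab5b was 0.383, 0.392 and 0.362 with R837 and 0.422, 0.433 and 0.404 with taurine, higher in every taurine library (two-sided exact permutation p = 0.1, 0.55 over the 11 pairs), while the ratio of Rab5b to Rab5c overlapped between the groups (exact p = 0.2). Of the 11 pairs, these values were apart between the groups only for Rab5a with Rab5b and Rab6a with Rab6b.

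Rab20, which takes part in phagosome maturation, had 6059, 5162 and 5499 with R837 and 6130.2, 6221 and 6507 with taurine added. The taurine libraries were all higher, though it did not pass (log2 change 0.18 ± 0.079, adjusted p = 0.219). With the length and GC trends removed the change was 0.037. Its exons share 356 bases with E230013L22Rik on the other strand, which had a change of 0.20 (adjusted p = 0.231). Rab21, an endosomal Rab that binds integrins, had 7919, 8403 and 8549 with R837 and 8659, 8360.4 and 8369 with taurine added, a change of 0.030 with a 95% interval of -0.12 to 0.18. For Rab14, Rab22a and Rab4b, which act in sorting and recycling, the changes were -0.12, 0.17 and 0.072, with intervals of -0.31 to 0.064, -0.061 to 0.40 and -0.16 to 0.30. Rab24, linked to autophagy, had 0.15 (-0.073 to 0.37) and shares 1258 exon bases with Prelid1 (0.30, adjusted p = 0.0654). Rab31 had 0.0015 (-0.58 to 0.58) at a mean of 171.

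The 7 Rabs of recycling and delivery to the plasma membrane gave no call. Rab8a and Rab8b, which bring vesicles from the Golgi and recycling endosomes to the surface, lay apart between the groups by similar amounts. Rab8a had 5196, 5072 and 5308 with R837 and 6045, 5985 and 5952 with taurine added (log2 change 0.21 ± 0.064, adjusted p = 0.0916). Rab8b had 15046, 15092 and 17169 with R837 and 18807, 18823 and 17357 with taurine added (log2 change 0.22 ± 0.073, adjusted p = 0.111). For Rab8b the test was passed without R837 replicate 3 (adjusted p = 0.0312) and after removal of trends on exon length and GC content (0.0218). The ratio of Rab8a to Rab8b per kb was 0.349, 0.34 and 0.313 with R837 and 0.325, 0.322 and 0.347 with taurine and overlapped between the groups (exact permutation p = 0.9). Rab10, which serves exocytosis and recycling, had 10086, 11084 and 11652 with R837 and 12357, 11573 and 10536 with taurine added, with overlapping groups and a 95% interval of -0.12 to 0.26. Rab35, a Rab of fast recycling, had -0.025 (-0.20 to 0.15). Rab11a and Rab11b, the defining Rabs of recycling endosomes, had 0.21 (-0.031 to 0.45) and 0.34 (-0.064 to 0.74). Rab11b stood at 3438 in taurine replicate 2 against 1794 to 2233 in the other 5 libraries, and without that library its change was 0.12. Rab12 was low in the same library, at 695 against 1097 to 1566, and its change went from -0.14 to 0.23 without it.

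Of the 8 Rabs of late endosomes, lysosomes and lysosome-related organelles, Rab29 alone passed. Rab7, which governs fusion of late endosomes with lysosomes, had 7094, 8643 and 7289.96 with R837 and 7024, 7225 and 9069 with taurine added. The groups overlapped, and the change was 0.014 with a 95% interval of -0.25 to 0.28. Rab32, a Rab of lysosome-related organelles, had 545, 360.01 and 449.8 with R837 and 619.9, 551 and 570.01 with taurine added (log2 change 0.38 ± 0.16, adjusted p = 0.204). The lowest taurine value lay just above the highest R837 value, and without R837 replicate 2 the change was 0.23. Rab39 had 188, 120.3 and 148 with R837 and 120.1, 103 and 83.9 with taurine added. The lowest R837 value and the highest taurine value nearly met (log2 change -0.56 ± 0.24, adjusted p = 0.209). Rab9, which returns mannose 6-phosphate receptors from late endosomes to the Golgi, was higher in every taurine library (log2 change 0.22 ± 0.11, adjusted p = 0.265), and Rab7b, which sends cargo from endosomes to the Golgi, overlapped (log2 change 0.16 ± 0.14, adjusted p = 0.528). Rab34 and Rab39b, at means of 24.4 and 12.7, had wide intervals (-1.30 to 2.38 and -2.06 to 1.45). The change of Rab34, 0.54, was 0.024 without taurine replicate 1 and 1.51 without taurine replicate 3.

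Rabs of regulated secretion were mostly scarce. The most abundant of the 6 was Rab27a, which docks secretory lysosomes and exosomes at the plasma membrane, with 841, 1018 and 836 with R837 and 1046, 1058 and 1110.3 with taurine added. All taurine libraries were higher, without passing (log2 change 0.26 ± 0.11, adjusted p = 0.206). Rab3d had a change of 0.49 (-0.10 to 1.08), with 285, 264 and 152 with R837 and 338, 368 and 255 with taurine added. Without R837 replicate 3 the change of Rab3d was 0.21. Rab37 (34, 36.6 and 37.5 with R837 and 38.4, 40.9 and 52 with taurine added) was higher in every taurine library, with a difference below its standard error (log2 change 0.26 ± 0.33, adjusted p = 0.676). Rab26, Rab3a and Rab44 had 0.56, 0.055 and -0.0041, none past the test (adjusted p = 0.614, 0.967 and 0.996). Rab26 ran from 0.17 without taurine replicate 1 to 1.11 without taurine replicate 2. It shares 267 exon bases with Traf7 on the same strand, at 3109.7 ± 371 to 3016 ± 225 far above it, and had -0.034 with overlapping genes added. Rab23, known from cilia and Hedgehog signalling, had 55.7, 59.7 and 62.5 with R837 and 39.4, 69.5 and 36.1 with taurine added (log2 change -0.35 ± 0.34, adjusted p = 0.579). Rab28 and Rab40c had 0.046 and 0.043 (intervals -0.34 to 0.43 and -0.24 to 0.33).

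The exons of 19 of the 45 members share bases with another annotated gene. For these genes the reads of the partners may be mixed, and with the partners' reads added the median change of the members was 0.063. A transcript that did not pass was not thereby shown to be equal in both groups. For 23 of the 45 members the 95% interval of the log2 change lay within ±0.5. Among the 25 with a mean of at least 1000, this held for 19.

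The partners of the Rab cycle were read from 4 lists with 140 genes, of which 128 were tested. 3 were higher and 5 lower, or 6.25%, against 6.41% of all genes, and their median change was -0.037. Of 8 genes for prenylation and membrane recycling, 1 was called: Chml, one of the 2 Rab escort proteins, went from 226 ± 39.4 to 82.9 ± 31.6 (log2 change -1.50 ± 0.31, adjusted p = 0.0283). It shares 461 exon bases with Opn3, and with the reads of that gene added its change was -0.82. The other escort protein gene, Chm, had -0.33 (adjusted p = 0.215), and Gdi2, which extracts GDP-bound Rabs from membranes, had -0.33 (adjusted p = 0.139).

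Among 36 exchange factors, 1 rose and 1 fell. Hps1, a subunit of the BLOC-3 complex that activates Rab32 and Rab38, went from 1314 ± 124 to 1739.6 ± 60.4 (log2 change 0.41 ± 0.099, adjusted p = 0.0464). Its partner Hps4 had 0.13 (adjusted p = 0.528). Dennd4a, an exchange factor for Rab10, went from 28500.5 ± 4401 to 20442 ± 987 (log2 change -0.47 ± 0.11, adjusted p = 0.0408). Of 37 GTPase-activating proteins tested, Tbc1d2b fell (4246 ± 253 to 3264 ± 274, log2 change -0.38 ± 0.089, adjusted p = 0.0425). Of 47 effectors tested, 2 rose and 2 fell. Rilpl1, an effector that binds Rab8 and Rab10 phosphorylated by LRRK2, went from 744 ± 32.1 to 1212 ± 97.7 (log2 change 0.70 ± 0.11, adjusted p = 0.012), with 776, 711 and 745 with R837 and 1101, 1246 and 1288 with taurine added. Inpp5b, an inositol phosphatase that binds several Rabs, went from 11516 ± 291 to 15231 ± 1206 (log2 change 0.40 ± 0.072, adjusted p = 0.0183). Fyco1, an effector of Rab7 that links vesicles to kinesin, went from 2138 ± 212 to 1315 ± 190.2 (log2 change -0.71 ± 0.13, adjusted p = 0.0176). Myo5a, a myosin motor recruited by Rab27a and other Rabs, went from 24159.9 ± 5626 to 15289 ± 1053 (log2 change -0.63 ± 0.16, adjusted p = 0.0496). Its R837 replicate 3, at 17672, lay nearer to the taurine libraries (14074 to 15940.5) than to R837 replicates 1 and 2 (27699 and 27109). Lrrk2, the kinase that Rab29 recruits, had 823, 754 and 709 with R837 and 596, 442 and 528 with taurine added, lower in every taurine library without passing (log2 change -0.55 ± 0.14, adjusted p = 0.0526). Of these 8 calls, the number kept with 1 library left out ran from 0 of 6 fits for Hps1 to 4 of 6 for Rilpl1. Fyco1 and Inpp5b kept theirs in 2 fits, and Chml, Dennd4a, Tbc1d2b and Myo5a in 1. With the trends on exon length and GC content removed, Dennd4a (-0.27, adjusted p = 0.0629), Myo5a (-0.45, 0.0597) and Hps1 (0.36, 0.0683) no longer passed. Without the abundance trend none of the 8 passed, and without a filter on low values Fyco1, Inpp5b and Rilpl1 alone did.

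The counts called varied with the libraries in the fit. Of the Rab members, 0 higher and 0 lower were called without R837 replicate 1 or 2 or without taurine replicate 2 or 3, 1 and 0 without taurine replicate 1, and 2 and 3 without R837 replicate 3. In the 4 fits without any call, 7 to 11 of the 45 members had an unadjusted p under 0.05 with limma, against 2728 to 3142 of all 15265 genes. Over all genes the same fits called 134 (without R837 replicate 2) to 1477 (without R837 replicate 3), against 979. At an unadjusted p under 0.05 there were 11 of 45 Rab members, against 23.7% of all genes. edgeR on the recovered reads called Rab29 and Rab6a alone among the members, where 6.22% of all genes were called. DESeq2 called these and Rab5b, where 15.1% of all genes with an adjusted p were called.

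**Figure D5:**
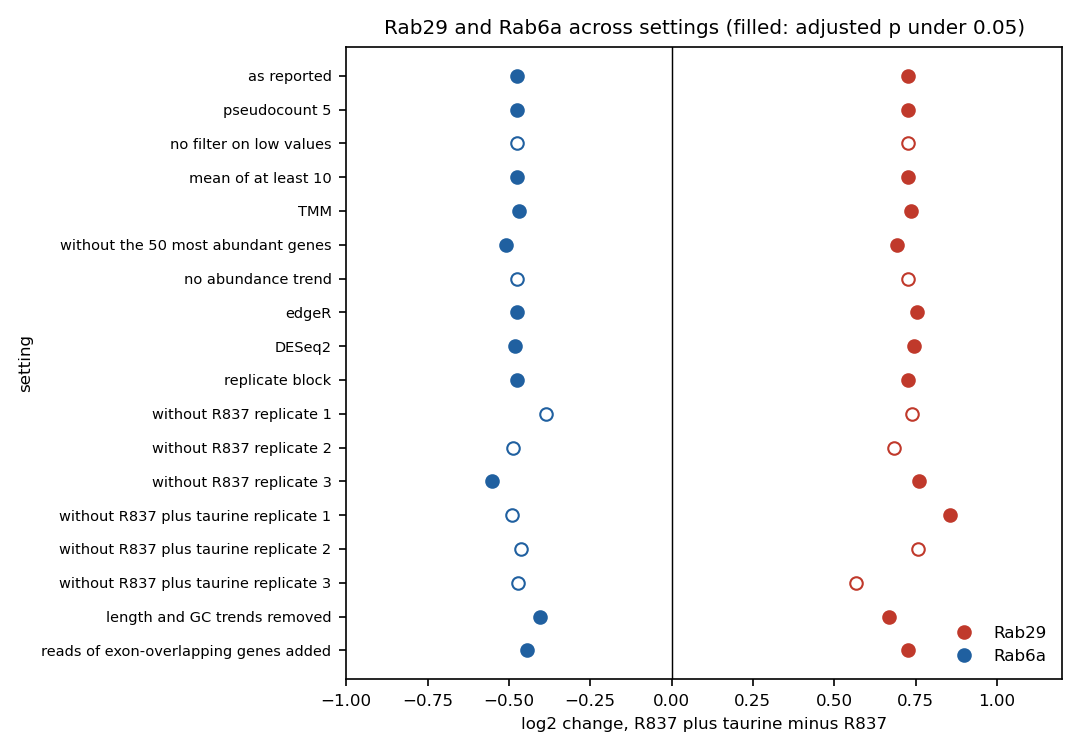
Log2 change (x axis) of Rab29 (red) and Rab6a (blue) under each setting (y axis), filled where the adjusted p was under 0.05. The values stay between 0.57 and 0.86 for Rab29 and between -0.55 and -0.39 for Rab6a, while the call is lost in 6 and 7 of the 17 alternatives.

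The libraries held 33585080 to 38392654 recovered reads on genes, and 18739 to 19003 genes had a value above 0. The 20 plasmacytoid markers were detected in all of them, and 8 of the 20 were called. Irf7 (0.65), Il3ra (0.74), Cox6a2 (0.55) and Bst2 (0.38) were higher with taurine, and Runx2 (-0.60), Tcf4 (-0.51), Pacsin1 (-0.38) and Klk1 (-0.35) were lower. Their summed level overlapped between the groups (477071 to 523993 and 504073 to 520654), with Siglech at 11769.6 ± 1434 with R837 and 11361 ± 889 with taurine. The CD3 genes Cd3d and Cd3g were at 0 in every library. Other T cell genes had low counts: Cd3e (0 with R837 and 2.69 ± 4.66 with taurine), the receptor gene Trac (7.01 ± 6.75 and 5.81 ± 6.22) and Lck (54.3 ± 13.5 and 85.2 ± 27.1). Cd8a carried the T cell list. The summed marker levels did not overlap between the groups for T cells (87511 to 93626 with R837 and 75737 to 82223 with taurine, 1 of 4 tested called), erythroid cells (101.1 to 143 with R837 and 178 to 276 with taurine, 1 of 5 tested called, no marker at 0), neutrophils (1188 to 1731 and 1788 to 2117, 1 of 8), conventional dendritic cells (22996 to 24040.1 and 19852 to 20639, 1 of 8) and stromal and endothelial cells (100156 to 119294 and 83027 to 89076, 2 of 4, with Col1a1, Col1a2 and Emcn at 0). Itgax (11165 ± 732 with R837 and 9180 ± 229 with taurine) and Sirpa (6472 ± 382 and 5609 ± 483) were the largest of the conventional dendritic cell list. Neither was called. The call of that list was Clec9a (2555 ± 54.4 and 1864 ± 126, log2 change -0.46, adjusted p = 0.0206, limma). Batf3 was higher in every taurine library without passing (log2 change 0.54, adjusted p = 0.158). Of the 8 changes of that list 3 were above 0 and 5 below, with Xcr1 at 47.8 ± 13.7 and 46.85 ± 7.44. A summed level can rest on few genes and does not count cells of that type. The part of these markers and cells in the changes of Rab29 and Rab6a was not tested. Members with longer exons tended to have lower changes (Spearman's rho = -0.20 over 45 genes, which share the 6 libraries), as did all 15238 genes with a length (-0.19). After removal of each library's trends on exon length and GC content rho was -0.0078 among the members, and the changes of Rab29 and Rab6a were 0.67 (adjusted p = 0.0232) and -0.40 (0.0337).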

How the data were processed

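The authors deposited 1 signal value per gene and library, which the file headers call a normalized count. Dividing by a common step gave whole reads for 100% of the values in each library (within 0.001 of a read), and the step was taken as the inverse of a size factor. The submitters' processing notes name StringTie, HISAT2 and, as genome builds, mm10 as well as mm8, without role or version, and the sources used here do not give the read counter or its strand setting. Of 52403 gene identifiers shared with GENCODE M21 (mm10), 95.2% had the same coordinates. Genes reaching 10 in 3 or more libraries were tested with limma 3.58.1 (R 4.3.3) on log2(normalized count + 1), 1 group term, two-sided. A fold on this scale is understated for low genes. edgeR 4.0.16 and DESeq2 1.42.0 were run on the recovered reads as alternatives, with the others given in the closing section. Exon length is the union of annotated exons. The scripts were tested on simulated data.

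Named with values were called members, the member with the smallest p in each role group, the 5 highest per length, members with groups apart and a change of at least 0.3, and Rab6b as paralog; the other members were given for completeness after their values were seen. Of the regulator and effector lists the called genes were named, and Chm, Gdi2, Hps4 and Lrrk2, which were not called, were added outside that rule. Members, lists, roles and motifs were chosen with earlier results of these data known. Every pair of libraries of a group differed by more than sampling noise (chi-square per degree of freedom 20.6 to 42.9), so none was counted as a repeat reading of the same library. This does not show that they came from separate mice or cultures.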

Additional observations from a re-analysis of the deposited data

How the results depend on the processing

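The log2 changes of Rab29 and Rab6a kept their sign in all 17 alternatives. The numbers of Rab members called higher and lower were 0 and 0 without a filter on low values, and also without the abundance trend. At an unadjusted p under 0.05 with limma, in either direction, there were 10 members without a filter and 6 without the trend. Of all genes there were 3942 of 23406 without a filter and 3217 of 15265 without the trend. With the trends on length and GC removed 2 members were called higher, and with DESeq2 2 were called lower. With 1 library left out the numbers called higher and lower ran from 0 to 2 and from 0 to 3. Of all genes, 547 were called without a filter, 4 without the trend (3217 at an unadjusted p under 0.05), 1808 with DESeq2 and 134 to 1477 with 1 library left out. The regulators and effectors called higher numbered 0 without the trend, 6 with DESeq2, 5 with overlapping genes added and 0 to 5 with 1 library left out. Those called lower numbered 1 without a filter, 0 without the trend, 10 when the 50 most abundant genes were left out of the scaling, 14 with DESeq2, 3 after trend removal and 0 to 10 with 1 library left out. That rescaling moved the share of higher calls over all genes from 58.5% to 44.1%. The cause of these shifts was not tested.

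Deviations of same-numbered libraries correlated at -0.0026, -0.0068 and -0.043, so no shared effect over all genes was visible. These values cannot show whether same-numbered libraries came from the same mouse or culture. With the replicate block 615 genes, 1 higher and 1 lower Rab member, and 2 higher and 4 lower regulators were called. Chml (adjusted p = 0.0585), Fyco1 (0.0503) and Hps1 (0.0758) were then not called by limma, and 1 other gene was.

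Of the 45 Rab changes, 32 turned sign or moved by over 1.5 times with some library left out, and 25 under another alternative. Those that turned sign were mostly small, but included Rab43 (0.79), Rab26 (0.56), Rab39b (-0.31) and Rab2b (0.18). After trend removal they were Rab14 (0.052), Rab28 (-0.018), Rab3a (-0.050), Rab40c (-0.037) and Rab4b (-0.051). Under the rescaling they were Rab21 (-0.0035), Rab31 (-0.032) and Rab7 (-0.020). With overlapping genes added, an alternative chosen after seeing the data, they were Rab26 (-0.034), Rab2b (-0.040) and Rab40c (-0.020). Rab31 had -0.0072 with DESeq2, Rab39b 0.0053 with edgeR and Rab44 0.0035 with TMM. With 1 library left out the changes that turned sign ran from -0.36 to 0.23 for Rab12, -0.0023 to 0.053 for Rab21, -0.12 to 0.19 for Rab28, -0.11 to 0.41 for Rab2b, -0.053 to 0.22 for Rab30, -0.20 to 0.18 for Rab31, -0.042 to 0.0050 for Rab35, -0.95 to 0.25 for Rab39b, -0.29 to 0.27 for Rab3a, -0.11 to 1.24 for Rab43, -0.27 to 0.23 for Rab44 and -0.10 to 0.10 for Rab7.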
